A study of Mus musculus with 4 samples.

Results

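MHC class II presentation genes were examined by RNA-seq in CD4+ T cells sorted from spleen. They are the chains of the classical molecules H2-A and H2-E (*H2-Aa*, *H2-Ab1* and *H2-Eb1*), the invariant chain *Cd74*, the chains of H2-DM (*H2-DMa*, *H2-DMb1* and *H2-DMb2*) and of H2-O (*H2-Oa* and *H2-Ob*), and the transactivator *Ciita*. The genes were taken as a named list of the pathway, with no threshold on their values though with earlier results of these data known, and matched on the gene symbol in each count table. All 10 were found among 55367 listed genes, and 8 of them were among the 12403 genes with enough counts to be tested. The mice were C57BL/6, and 4 libraries were made, 2 labelled wild type (WT 1 and WT 2) and 2 labelled *Satb1* conditional knockout (cKO 1 and cKO 2). In the cKO mice, floxed *Satb1*, the gene of a genome organizer, is removed by *Thpok-cre*, which is active in cells committed to the CD4 lineage, so B cells and myeloid cells of the same spleen are not its target. The study used young adult mice of both sexes in general, without giving the age or sex behind each library, and the sources used here do not state whether the WT mice carried the floxed allele or Cre. No treatment was given. Each replicate is described in the study as a separate biological replicate.

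The libraries held between 4495902 and 6555699 counts on genes, and a gene at 3 counts, taken here as the floor of detection, corresponds to between 0.459 and 0.672 CPM, the TMM-scaled count of a gene per 1e+06 counts. *Satb1* was 868 and 984 CPM in WT 1 and WT 2 and 945 and 847 CPM in cKO 1 and cKO 2, so its count did not separate the labels (log2 fold change -0.05, edgeR quasi-likelihood adjusted p = 0.877), and it gives no check of them. *Foxp3* and *Pdcd1*, which the study follows in cKO cells, rose with the cKO label, *Foxp3* from 142 and 121 CPM to 405 and 547 CPM and *Pdcd1* from 27.2 and 24.2 CPM to 49.9 and 45.7 CPM (edgeR quasi-likelihood adjusted p = 0.000447 and 0.0113). Every direction below follows the labels. *Xist*, transcribed from the inactive X chromosome, gave 5447 and 4235 reads for the WT label against 9 and 6 for the cKO label, and the Y-linked *Ddx3y* gave 0 reads for either WT library against 525 and 597 for the cKO label. Sex-linked expression and genotype label therefore cannot be told apart. The T cell markers summed to between 7934 and 8753 CPM over the 4 libraries. Since RNA was measured in bulk, fewer cells of a type and less RNA per cell cannot be told apart in any value that follows.

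MHC class II molecules carry peptides made in endosomes to the cell surface, where the T cell receptor of a CD4+ T cell reads them. The α and β chains assemble on the invariant chain encoded by *Cd74*, which blocks the groove until endosomal proteases cut it away. H2-DM then exchanges the remaining fragment for other peptides, and H2-O holds H2-DM back. Transcription of the classical chains and *Cd74* depends on CIITA, which does not bind DNA itself but is recruited by RFX, CREB and NF-Y proteins sitting on the X and Y boxes of the promoters. B cells, dendritic cells and macrophages use these genes constitutively or on induction, whereas resting mouse T cells are known to make little or none of the classical chains.

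The promoters are shown because CIITA reaches class II genes through their X and Y boxes, whether or not their RNA differed between libraries. RefSeq windows of 300 bases on GRCm38.p6, from 250 bases before to 50 bases after each start, were present for 7 of the 10 genes, all but *H2-Ab1*, *Cd74* and *Ciita*, in 8 windows since *H2-DMa* has more than 1 start. Each was searched on both strands. The Y box CTGATTGG was found in 3 of the 8 windows (*H2-Aa*, *H2-Eb1* and *H2-Oa*) and in 4.10% of all 32851 windows in the table, and CCAAT, whose reverse complement is part of it, in 7 of 8 and in 37.4% of all. The X1 core ACNGATG was found in 5 of 8 and in 9.85% of all. With the first base of the Y box left off, a form chosen after the sequences had been read, TGATTGG was found in 6 of 8 windows and in 7.82% of all. Windows of 80 bases around that motif are printed for 5 of these 6 genes (that of *H2-DMb1* lies within annotated exon and is left out), 5′ to 3′ on the strand of the gene, with TGATTGG in capitals, and with the X1 core in capitals where it lies at most 40 bases from it.
H2-Aa, chr17:34287849-34287928, minus strand: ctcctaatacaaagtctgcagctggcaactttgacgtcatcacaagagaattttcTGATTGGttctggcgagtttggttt
H2-Eb1, chr17:34305751-34305830, plus strand: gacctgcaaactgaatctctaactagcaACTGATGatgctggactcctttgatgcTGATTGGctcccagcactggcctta
H2-DMb2, chr17:34145102-34145181, plus strand: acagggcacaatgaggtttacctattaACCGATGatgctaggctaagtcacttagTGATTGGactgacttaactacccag
H2-Oa, chr17:34092279-34092358, plus strand: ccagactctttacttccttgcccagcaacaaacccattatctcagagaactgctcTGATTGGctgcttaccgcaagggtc
H2-Ob, chr17:34238791-34238870, plus strand: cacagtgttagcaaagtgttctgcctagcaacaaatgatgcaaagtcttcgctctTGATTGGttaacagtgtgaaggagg

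In these windows the motif began 50 bases before the RefSeq start of *H2-Aa*, 61 before that of *H2-Eb1*, 92 before that of *H2-DMb2*, 45 before that of *H2-Oa* and 59 before that of *H2-Ob*, and it began 63 bases before that of *H2-DMb1*. X1 core and TGATTGG stood at most 40 bases apart in 3 of the 8 windows, those of *H2-Eb1*, *H2-DMb1* and *H2-DMb2*, and in 0.222% of all windows. With the whole Y box the pair was found in *H2-Eb1* and in 0.100% of all windows. Neither *H2-DMa* window held TGATTGG. A match is a string of letters and was not tested for binding.

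The classical chains were low in the WT libraries, though above the floor, and uneven between the libraries labelled cKO. *H2-Aa*, the α chain of H2-A (chr17:34282744-34287823, minus strand), was 2.91 and 6.27 CPM in WT 1 and WT 2 and 26.9 and 8.29 CPM in cKO 1 and cKO 2, from 19, 28, 141 and 39 counts. Library cKO 1 was the highest by far, while cKO 2 was little above WT 2, and the groups did not overlap. The fold over WT was 4.05 (95% interval 1.68 to 9.73), and it did not pass the threshold (log2 fold change 2.02 ± 0.56 SE, n = 2 per group, edgeR quasi-likelihood adjusted p = 0.0866).

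*H2-Ab1*, the β chain paired with *H2-Aa* (chr17:34257689-34269419), was 4.74 and 8.51 CPM in WT 1 and WT 2 and 34.7 and 11.7 CPM in cKO 1 and cKO 2. The order of the 4 libraries was that of its partner chain, again without overlap. Its log2 fold change was 1.87 ± 0.49 SE (n = 2 per group, edgeR quasi-likelihood adjusted p = 0.0747). *H2-Eb1*, the β chain of H2-E (chr17:34305867-34316674), was 5.66 and 4.93 CPM in WT 1 and WT 2 and 27.6 and 7.23 CPM in cKO 1 and cKO 2, with a log2 fold change of 1.72 ± 0.54 SE (n = 2 per group, edgeR quasi-likelihood adjusted p = 0.125). Here too cKO 1 stood apart and cKO 2 lay close above both WT libraries. The α chain of H2-E, *H2-Ea*, which C57BL/6 mice are known not to express, had 0 counts in all 4 libraries.

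*Cd74*, the invariant chain (chr18:60803848-60812652), rose in the libraries labelled cKO and was the 1 member that passed the test. It was 22.9 and 27.1 CPM in WT 1 and WT 2 and 114.9 and 46.8 CPM in cKO 1 and cKO 2, from 150, 121, 603 and 220 counts. The WT libraries were close to each other, both libraries labelled cKO were above them, and cKO 1 was again the higher. The means were 25.03 ± 2.95 CPM in WT and 80.8 ± 48.2 CPM in cKO (SD, n = 2 each). The fold was 3.27 (95% interval 1.86 to 5.72) and the log2 fold change 1.71 ± 0.36 SE (edgeR quasi-likelihood adjusted p = 0.0338). The call was lost with DESeq2 (adjusted p = 0.140), and without cKO 1 the log2 fold change was 0.91.

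*Ciita*, the transactivator (chr16:10480059-10528418), was 1.53 and 2.24 CPM in WT 1 and WT 2 and 5.15 and 2.34 CPM in cKO 1 and cKO 2, from 10, 10, 27 and 11 counts. Library cKO 2 differed from either WT library by a single count before scaling, and cKO 1 was set apart. Its log2 fold change of 1.03 ± 0.50 SE did not pass the test (n = 2 per group, edgeR quasi-likelihood adjusted p = 0.306), and without cKO 1 it was 0.35 (adjusted p = 0.762). Of its exonic bases, 3.45% lie under *Dexi* on the opposite strand, which was 17.0 to 20.96 CPM.

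The chains of H2-DM and H2-O did not share 1 pattern. *H2-DMa*, the α chain of the peptide exchanger (chr17:34119541-34139101), was 43.0 and 49.5 CPM in WT 1 and WT 2 and 55.6 and 38.1 CPM in cKO 1 and cKO 2. The groups overlapped, with the libraries labelled cKO on either side of WT. The fold was 1.02 with a 95% interval of 0.764 to 1.36 (edgeR quasi-likelihood adjusted p = 0.959). Exons of *Brd2*, at 577 to 664 CPM, cover 10.4% of its exonic bases on the opposite strand. The strand setting of the counting is not given in the sources used here, and without strand, reads of such overlapping genes cannot be told apart.

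The genes of the H2-DM β chain were near the floor. *H2-DMb1* (chr17:34153072-34160230) had 4, 3, 9 and 3 counts and *H2-DMb2* (chr17:34143307-34151555) had 5, 4, 13 and 9 counts in WT 1, WT 2, cKO 1 and cKO 2, so neither was tested. The copies lie next to each other and share sequence. Of the stretches of 50 bases in their transcripts, the read length, 22.7% of those of *H2-DMb1* and 25.9% of those of *H2-DMb2* recur in the transcripts of another gene, the other copy among them, and a read from such a stretch cannot be placed on 1 gene. Summed over both copies, the counts were 9, 7, 22 and 12, and the log2 fold change of the sum was 1.21 ± 0.46 SE (n = 2 per group, edgeR quasi-likelihood adjusted p = 0.195).

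*H2-Ob*, the β chain of the H2-DM inhibitor (chr17:34238903-34254414), had the smallest spread of the members within each group relative to its level. It was 48.0 and 48.6 CPM in WT 1 and WT 2 and 71.5 and 62.3 CPM in cKO 1 and cKO 2. The groups did not overlap, and the difference was small but even. The fold was 1.39 (95% interval 1.14 to 1.68), with a log2 fold change of 0.47 ± 0.12 SE that did not pass the test (n = 2 per group, edgeR quasi-likelihood adjusted p = 0.0734). *H2-Oa*, its partner α chain (chr17:34092340-34095234), was 15.9 and 11.7 CPM in WT 1 and WT 2 and 15.1 and 7.87 CPM in cKO 1 and cKO 2. Its groups overlapped, and the fold was 0.829 with a 95% interval of 0.506 to 1.36 (edgeR quasi-likelihood adjusted p = 0.703). *BC051537*, at 2.76 to 7.80 CPM, covers 22.8% of the exonic bases of *H2-Oa* on the opposite strand. The plot of the members by library shows these patterns side by side.

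**Figure D1:**
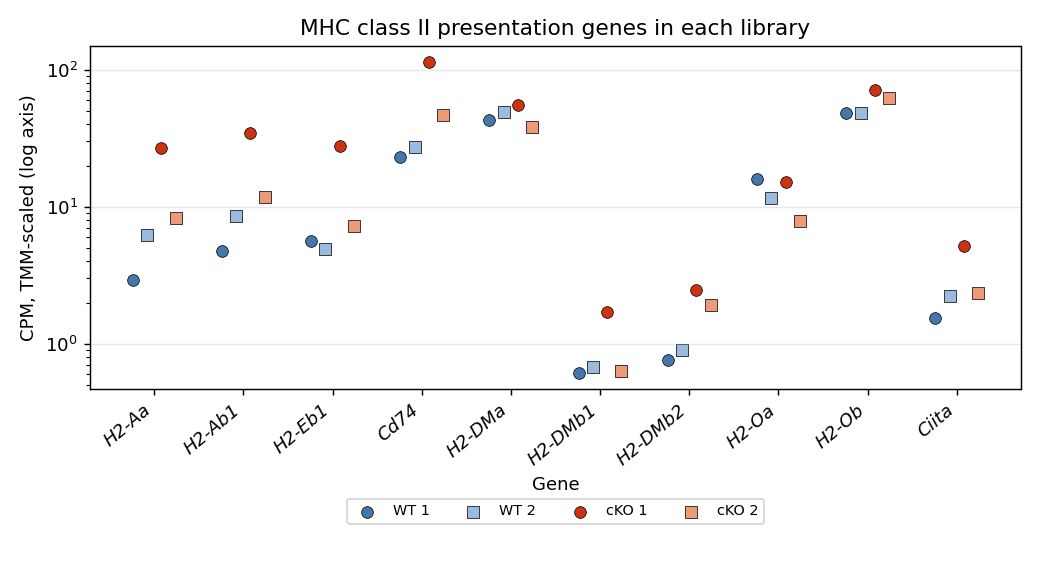
CPM of each of the 10 class II genes on a log axis, 1 point per library, for WT 1, WT 2, cKO 1 and cKO 2. The point of cKO 1 is the highest for all genes other than *H2-Oa*, while *H2-DMa*, *H2-DMb1* and *H2-Oa* have groups that overlap.

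To set the genes side by side, CPM were divided by exonic length in kb, taken over all annotated transcripts of a gene. On this scale the levels in the WT libraries were led by *Cd74* (13.7 and 16.2 CPM per kb in WT 1 and WT 2) and *H2-DMa* (12.5 and 14.4), whose ranges overlapped. *H2-Oa* (11.3 and 8.28 CPM per kb) and *H2-Ob* (8.93 and 9.04) came next and did not differ beyond their spread. The classical chains were lower, with *H2-Eb1* at 2.91 and 2.54 CPM per kb, *H2-Ab1* at 1.85 and 3.32, and *H2-Aa* at 0.765 and 1.65, and the ranges of *H2-Eb1* and *H2-Ab1* overlapped. *H2-DMb2*, *H2-DMb1* and *Ciita* were last, all between 0.161 and 0.513 CPM per kb. Thus in WT libraries the accessory chains *H2-DMa*, *H2-Oa* and *H2-Ob* were each above every classical chain. In cKO 1 the order was different in part. *Cd74* reached 68.4 CPM per kb. *H2-Eb1* (14.2) and *H2-Ab1* (13.5) lay between *H2-DMa* (16.1) and *H2-Ob* (13.3) and above *H2-Oa* (10.7). *H2-Aa* (7.08) was below all of these. This order depends on the lengths, since *H2-Aa* (3798 bases) and *H2-Eb1* (1944 bases) were 26.9 and 27.6 CPM in cKO 1. In cKO 2 *Cd74* was 27.9 CPM per kb, and *H2-Eb1* (3.72), *H2-Ab1* (4.55) and *H2-Aa* (2.18) were below *H2-DMa* (11.04), *H2-Ob* (11.6) and *H2-Oa* (5.59).

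Among all tested genes, 4.30% were called at an adjusted p under 0.05 in either direction, 2.35% with cKO higher and 1.95% with cKO lower. Of the 8 tested class II genes, 1 was called higher (*Cd74*) and 0 lower by the edgeR quasi-likelihood test, and 5 had an unadjusted p under 0.05, all with the higher mean in cKO, as did 19.1% of all tested genes in either direction and 9.72% with cKO higher. Groups that did not overlap were common in these data, since 50.3% of all tested genes had them and 24.8% had them with cKO higher, and 6 of the 8 class II genes did, all with cKO higher. The median log2 fold change of the 8 genes was 1.37, beside a median of -0.0015 over all tested genes.

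These values depended on single libraries. The median moved most without cKO 1, and the number of members called moved without each of the other libraries. With cKO 1 left out, where 10.6% of all tested genes were called, the median log2 fold change of the 8 genes was 0.40. *Cd74* was called there too, at a log2 fold change of 0.91 (edgeR quasi-likelihood adjusted p = 0.00367), while *H2-Aa* stood at 0.92 (adjusted p = 0.208), *H2-Ab1* at 0.87 (adjusted p = 0.146) and *H2-Eb1* at 0.43 (adjusted p = 0.490). With cKO 2 left out, where 12.8% of all genes were called, the edgeR test called 5 members, namely *Cd74*, the 3 classical chains and *H2-Ob*. The WT libraries mattered too. Without WT 1, where 4.02% of all genes were called, 4 members were called (*Cd74* and the classical chains), and without WT 2, where 1.40% were called, 0 members were called by edgeR, 5 having an unadjusted p under 0.05 beside 10.4% of all genes, and *Cd74* had an adjusted p of 0.0723. With DESeq2 in place of edgeR on all 4 libraries, where 3.44% of all genes were called, 0 members were called, 4 having an unadjusted p under 0.05 beside 10.9% of all genes, and *Cd74* had an adjusted p of 0.140. Where 1 library is left out, the single library of its group is assumed to vary like the other group.

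**Figure D2:**
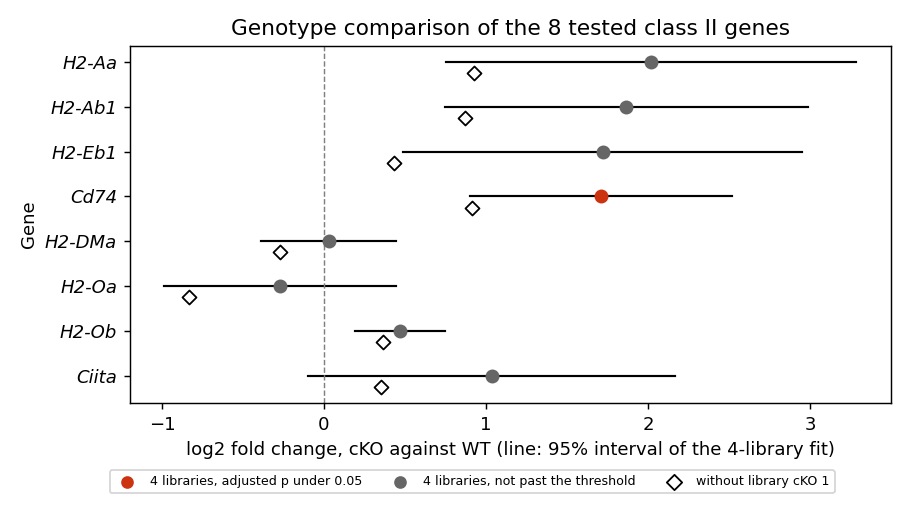
log2 fold change of cKO over WT for the 8 tested class II genes, with filled circles and lines for the estimate and 95% interval from 4 libraries (red for an adjusted p under 0.05) and open diamonds for the estimate without library cKO 1. *Cd74* is the 1 red point, and its estimate moves from 1.71 to 0.91 without cKO 1.

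The libraries labelled cKO were then compared with each other, since a difference between replicates of 1 genotype label is not one of genotype. These ratios compare 2 libraries, with intervals that cover counting error only. The 3 classical chains summed to 468 counts in cKO 1 and 128 in cKO 2, which is a CPM ratio of 3.28 (95% interval 2.69 to 4.02). *H2-Eb1* had the highest ratio at 3.82 (2.62 to 5.73), followed by *H2-Aa* at 3.24 (2.26 to 4.75) and *H2-Ab1* at 2.97 (2.18 to 4.09), and these intervals overlapped one another. *Cd74* was at 2.46 (2.102 to 2.88) and *Ciita* at 2.20 (1.06 to 4.92).

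The accessory chains differed less between cKO 1 and cKO 2. *H2-Oa* had a ratio of 1.91 (95% counting interval 1.28 to 2.91), *H2-DMa* of 1.46 (1.21 to 1.77) and *H2-Ob* of 1.15 (0.982 to 1.34), and the interval of *H2-Ob* included 1. The low counts of *H2-DMb1* (2.69, 0.671 to 15.4) and *H2-DMb2* (1.30, 0.512 to 3.43) left their ratios undetermined at this depth. The H2-DM and H2-O chains summed gave 1.32 (1.18 to 1.48), an interval that lies wholly below that of the classical chains. Summed over all 10 genes the ratio was 1.90 (1.75 to 2.06). The intervals of 7 of 10 genes lay above 1 and none below. These 7 were among the 8 tested, and over all tested genes 15.7% of intervals lay above 1 and 12.4% below, with a median ratio of 1.005. At a limit of 2-fold, chosen after the values had been seen, 5 of the 8 tested members were at least that much higher in cKO 1 than in cKO 2, as were 1.85% of all tested genes.

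The WT libraries did not differ in this way. The classical chains summed had a WT 1 over WT 2 ratio of 0.675 (95% counting interval 0.496 to 0.918), with *H2-Aa* at 0.463 (0.245 to 0.860) and *H2-Ab1* at 0.557 (0.335 to 0.919), so that WT 2 was the higher for both chains of H2-A. All 10 genes summed gave 0.911 (0.826 to 1.005).

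Markers of B cells, which use class II constitutively, mostly moved with these genes. The B cell list held 16 genes, all with counts in at least 1 library, of which 13 had enough counts for a ratio, *Ebf1*, a B cell factor with 15 counts in cKO 1 and 0 in cKO 2, not being among them. Of these, 11 had an interval above 1 between cKO 1 and cKO 2 and none below, with a median ratio of 2.98. Over all tested genes 15.7% of intervals lay above 1. The 11 include *Ighm*, whose ratio of 1.30 was matched by 1.31 for WT 1 over WT 2. *Cd79a*, a signalling chain of the B cell receptor, was at 1.38 and 0.896 CPM in WT 1 and WT 2 and at 10.5 and 1.70 CPM in cKO 1 and cKO 2, and *Cd79b*, its partner chain, at 5.66, 6.05, 13.3 and 4.89 CPM. *Ms4a1*, which encodes CD20, had 1, 4, 24 and 6 counts, so that this defining marker was near the floor outside cKO 1. *Cd22*, an inhibitory receptor, was an exception at a ratio of 0.861 (95% counting interval 0.567 to 1.31).

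Without the 3 immunoglobulin genes the B cell list summed to 17.4 and 19.5 CPM in WT 1 and WT 2 and to 71.7 and 29.97 CPM in cKO 1 and cKO 2, which is the order of the libraries for *H2-Aa*, *H2-Ab1*, *Cd74* and *Ciita*. With them it summed to 612, 492, 732 and 503 CPM, most of it *Ighm*, the constant region of IgM (583, 445, 582 and 448 CPM), whose ratio between cKO 1 and cKO 2 was 1.30 (95% counting interval 1.23 to 1.37). *Igkc*, the light chain constant region, was at 6.27, 25.1, 64.8 and 19.98 CPM. *Pax5*, the factor that maintains B cell identity, rose in the libraries labelled cKO (0.765, 0.896, 10.1 and 3.19 CPM, log2 fold change 3.001, edgeR quasi-likelihood adjusted p = 0.0407) and was the 1 gene called of 7 tested in the list. Without cKO 1 its log2 fold change was 1.93 (adjusted p = 0.0704) and without WT 2 its adjusted p was 0.120. The study enriched T cells magnetically and sorted them, and its lineage gates for flow cytometry included B220, a marker of B cells, though the gate used for these libraries is not given in the sources used here. The part of B cells in the class II result was not tested.

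Monocyte and macrophage markers were also uneven. The 12 genes summed to 44.8 and 53.1 CPM in WT 1 and WT 2 and to 120.6 and 68.9 CPM in cKO 1 and cKO 2. None of them was at 0 in all libraries. Of 10 with a ratio, 4 had an interval above 1 between cKO 1 and cKO 2 and none below, with a median of 1.79. Of 9 tested, 3 rose in the libraries labelled cKO by the edgeR quasi-likelihood test. These were *Lyz2*, a lysozyme (2.14, 2.69, 22.7 and 8.93 CPM, adjusted p = 0.0178), *Mpeg1*, a pore former (5.20, 6.50, 20.8 and 11.7 CPM, adjusted p = 0.0388), and *Cybb*, an oxidase subunit (5.51, 6.72, 13.2 and 15.5 CPM, adjusted p = 0.0292). *Lyz2* was called without any 1 of the libraries, whereas *Mpeg1* was not called without cKO 1 (adjusted p = 0.0583) or WT 2 (0.105), and *Cybb* was not called without WT 1 (0.123) or WT 2 (0.116) or with DESeq2 (0.0627). The integrin *Itgam* (2.14, 2.24, 1.33 and 1.06 CPM, adjusted p = 0.374) and *Cd68* (5.51, 6.27, 6.10 and 3.401 CPM, adjusted p = 0.722) had the lower mean in cKO and did not pass the test. *Csf1r*, the most abundant of the list, was 17.7, 19.9, 38.3 and 18.9 CPM. In contrast with *Lyz2*, *Cybb* was not higher in cKO 1 than in cKO 2, with a ratio of 0.847 (95% counting interval 0.601 to 1.19). The part of these cells in the class II result was not tested.

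Other lists differed in size and direction between the libraries labelled cKO. The 12 T cell markers had ratios of 0.951 to 1.31 with a median of 1.09, and at their high counts 8 of the 12 intervals lay above 1 and none below. The NK cell markers summed, with 24 and 5 counts in cKO 1 and cKO 2, gave a ratio of 4.30 (95% counting interval 1.61 to 14.4), and the plasma cell markers summed, with 43 and 12 counts, gave 3.21 (1.66 to 6.69). Among 10 dendritic cell markers, *Itgax*, which encodes CD11c, had 19 and 23 counts in WT 1 and WT 2 and 10 and 3 in cKO 1 and cKO 2, and *Wdfy4*, which is needed for cross-presentation, was 22.0, 33.4, 13.3 and 21.9 CPM. The other 8 had at most 10 counts in any library. The erythroid markers summed gave a ratio of 0.0721 (95% counting interval 0.0522 to 0.0974), and cKO 1 was the lowest of the libraries there. By the edgeR quasi-likelihood test, the neutrophil genes *S100a9* (adjusted p = 0.00570), *Ltf* (0.00332) and *Ngp* (0.0190) rose in the libraries labelled cKO, and *Klrd1* of NK cells (0.0108), *Cd8b1* of CD8 T cells (0.0201) and *Thy1* of T cells (0.0169) fell. The calls of *Cd8b1* and *Thy1* were lost without WT 2 (adjusted p = 0.163 and 0.235), that of *Thy1* also without WT 1 (0.136), and that of *Ngp* with DESeq2 (0.456). Summed neutrophil markers were 0 and 3.81 CPM in WT 1 and WT 2 and 39.4 and 24.2 CPM in cKO 1 and cKO 2. The plot of cKO 1 over cKO 2 shows the class II genes beside the B cell, macrophage and T cell markers.

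**Figure D3:**
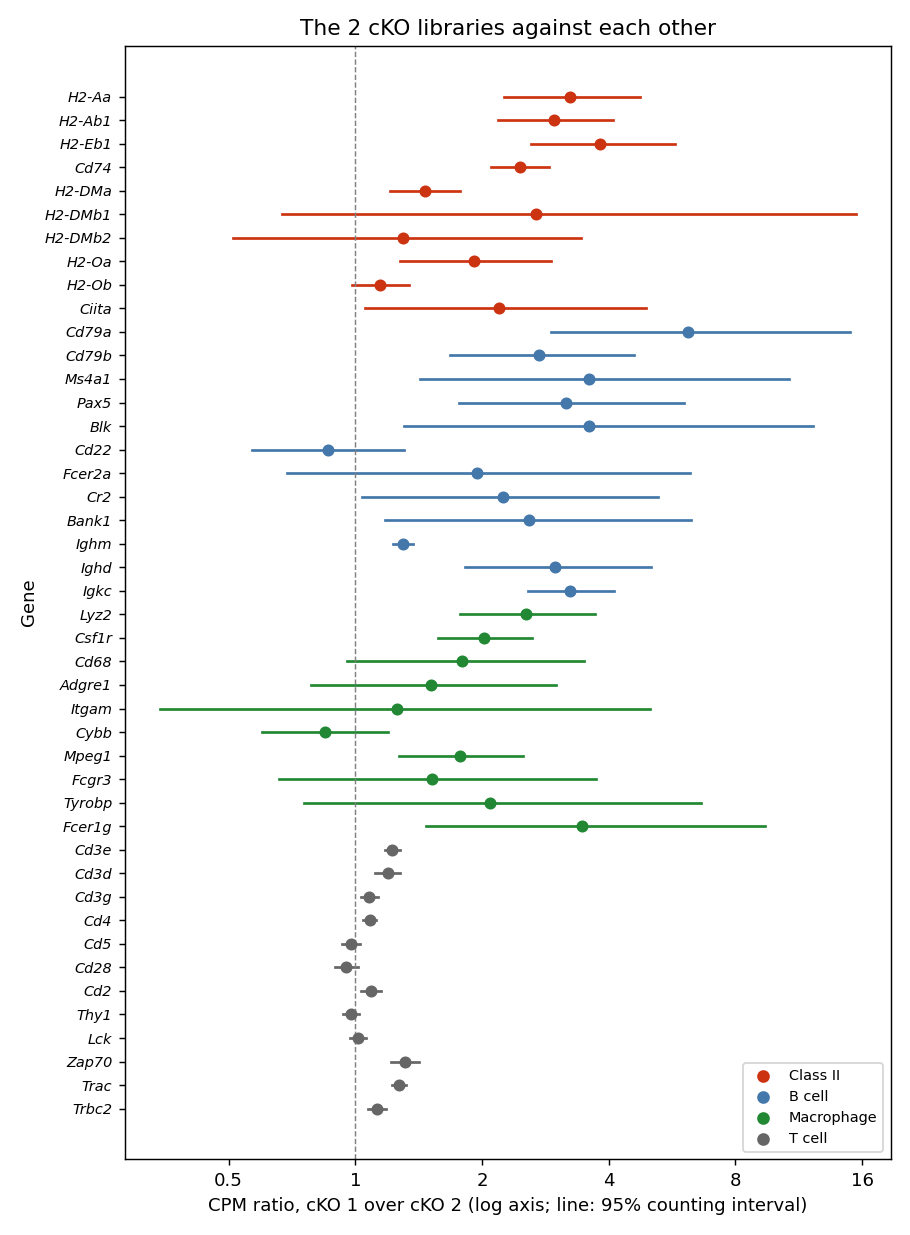
CPM ratio of library cKO 1 over library cKO 2 on a log axis, with 95% counting intervals, for the class II genes and for the B cell, monocyte and macrophage, and T cell markers that had enough counts, 1 B cell marker not shown. The classical chains lie at 2.97 to 3.82, within the range of the B cell markers (0.861 to 6.16). The monocyte and macrophage markers lie at 0.847 to 3.46, and the T cell markers lie near 1, at 0.951 to 1.31.

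Ratios within a library do not depend on its depth. Per count of the 13 B cell markers without immunoglobulins, the classical chains had 0.763 counts in WT 1 (95% counting interval 0.571 to 1.02), 1.01 in WT 2 (0.744 to 1.38), 1.25 in cKO 1 (1.08 to 1.43) and 0.908 in cKO 2 (0.709 to 1.16). The intervals of WT 1 and cKO 1 did not overlap. The classical chains themselves summed to 13.3 and 19.7 CPM in WT 1 and WT 2 and to 89.2 and 27.2 CPM in cKO 1 and cKO 2. Per count of *Cd74*, the classical chains had 0.580, 0.727, 0.776 and 0.582 counts in WT 1, WT 2, cKO 1 and cKO 2. Per count of the monocyte and macrophage markers they had 0.297, 0.371, 0.739 and 0.395, where cKO 1 (0.655 to 0.835) stood above the other libraries. With each of these 3 denominators the ratios spanned a narrower range than the CPM of the classical chains, and the range was narrowest per count of *Cd74*.

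The H2-DM and H2-O chains followed another course. Per count of *Cd74* they had 4.72 and 4.11 counts in WT 1 and WT 2 and 1.27 and 2.37 in cKO 1 and cKO 2. Their summed level was 108.3 and 111.4 CPM in WT 1 and WT 2 and 146.3 and 110.7 CPM in cKO 1 and cKO 2, so cKO 2 lay between the WT libraries.

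**Figure D4:**
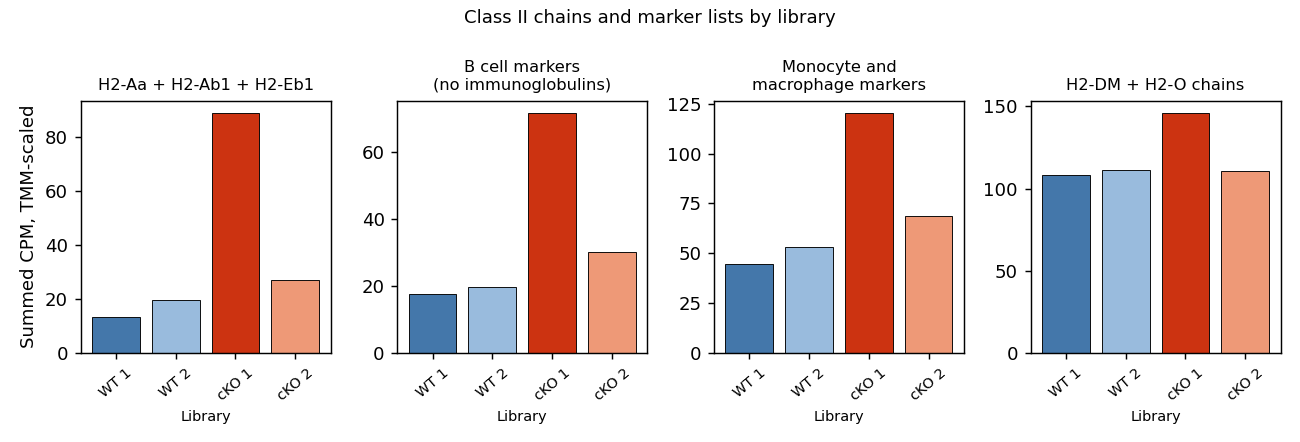
Summed CPM by library for the classical chains, the 13 B cell markers without immunoglobulin genes, the 12 monocyte and macrophage markers, and the H2-DM and H2-O chains, 1 bar per library on axes that start at 0. The first 3 sums are highest in cKO 1 and next in cKO 2, and the H2-DM and H2-O chains lie between 108.3 and 146.3 CPM.

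The factors that recruit CIITA to the X and Y boxes were expressed in all libraries. Of the 7 genes of this group (*Rfx5*, *Rfxap*, *Rfxank*, *Creb1*, *Nfya*, *Nfyb* and *Nfyc*), 0 passed the edgeR quasi-likelihood test, 0 had an unadjusted p under 0.05 and 0 passed with DESeq2, and their median log2 fold change was -0.06. *Creb1*, the most abundant, was 188 and 207 CPM in WT 1 and WT 2 and 216 and 235 CPM in cKO 1 and cKO 2 (edgeR quasi-likelihood adjusted p = 0.358), and *Nfya*, a subunit of the CCAAT-binding NF-Y, was 98.0, 83.4, 102.3 and 100.1 CPM (adjusted p = 0.525). *Rfx5*, a DNA-binding subunit of RFX, was 49.9, 41.0, 42.5 and 45.1 CPM. *Ciita*, which these factors recruit, was at most 5.15 CPM in the same libraries.

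Among 10 genes that process antigen or the invariant chain in endosomes, 9 were tested and 1 rose. *Ctsl*, a protease that trims the invariant chain in thymic epithelium, was 7.50 and 7.62 CPM in WT 1 and WT 2 and 17.3 and 14.0 CPM in cKO 1 and cKO 2 (log2 fold change 1.06 ± 0.23 SE, n = 2 per group, edgeR quasi-likelihood adjusted p = 0.0413). This call was lost with DESeq2 (adjusted p = 0.114) and without WT 1 (0.120), WT 2 (0.220) or cKO 1 (0.0589). The proteases *Ctsb* and *Ctsd* were at 224 to 277 CPM and 185 to 240 CPM (edgeR quasi-likelihood adjusted p = 0.579 and 0.964). *Ctss*, which does this trimming in B cells and dendritic cells, was 193, 202, 234 and 225 CPM (edgeR quasi-likelihood adjusted p = 0.254). The median log2 fold change of the group was 0.15.

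Of the genes that set the surface turnover of class II or act beside it in presentation, some passed the test in each direction. *Cd83*, which protects class II from ubiquitin-driven loss and is also made by activated and regulatory T cells, rose from 15.9 and 11.4 CPM in WT 1 and WT 2 to 27.1 and 27.4 CPM in cKO 1 and cKO 2 (edgeR quasi-likelihood adjusted p = 0.0296). *Icosl*, the ligand of ICOS, rose from 1.99 and 1.34 CPM to 6.29 and 5.10 CPM (edgeR quasi-likelihood adjusted p = 0.0462). *Cd86*, a ligand of CD28, fell from 17.3 and 15.7 CPM to 5.15 and 7.02 CPM (edgeR quasi-likelihood adjusted p = 0.0151). For each of these 3 genes the libraries cKO 1 and cKO 2 were closer to each other than to WT. Without WT 2 none of these 3 calls held, with adjusted p of 0.215, 0.281 and 0.0666 in that order, and that of *Icosl* was also lost without WT 1 (0.0627) or cKO 1 (0.0666) and with DESeq2 (0.169). *Marchf1*, a ligase that removes class II from the surface, had 5 to 8 counts per library and was not tested.

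The genes with the profile nearest to the mean of *H2-Aa*, *H2-Ab1*, *H2-Eb1* and *Cd74* over the 4 libraries were listed by the distance between centred log2 CPM, among 12360 tested genes with an average log2 CPM of at least 1. The nearest 8 were *Cd5l* (distance 0.325), *Slc40a1* (0.357), *Bbc3* (0.359), *Vcam1* (0.376), *C1qb* (0.397), *Fscn1* (0.409), *Lrp1* (0.466) and *Hmox1* (0.481). *Cd5l* encodes a protein secreted by macrophages, *Slc40a1* the iron exporter ferroportin, *C1qb* a chain of complement C1q and *Hmox1* heme oxygenase. Their ratios between cKO 1 and cKO 2 ran from 2.01 for *Hmox1* to 3.49 for *Bbc3*. No gene of the B cell list was among the 8. With 4 points a likeness of profile is a description of these libraries.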

How the data were processed

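RNA was extracted from sorted splenic CD4+ T cells and sequenced in reads of 50 bases. The authors aligned the reads to mm10 with HISAT2 2.1.0 and deposited raw read counts per gene made with HTSeq, given as version 0.11.1 in the submitters' processing notes; the annotation is not given in the sources used here. HTSeq leaves out reads that align to more than 1 place, and 59.4 to 64.5% of the uniquely aligned reads fell on no gene. Summary lines were kept out of all tests.

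Counts were analysed in R 4.3.3 with edgeR 4.0.16, using filterByExpr with a minimum count of 10, TMM scaling, and the two-sided quasi-likelihood test on genotype label over 12403 genes, with Benjamini-Hochberg adjustment and a call at an adjusted p under 0.05. An exact permutation test of 2 against 2 libraries cannot go below p = 0.333, so no such test was used. Intervals of ratios between libraries are exact Clopper-Pearson intervals at 95%, for counting error only, since PCR copies of a molecule cannot be recognised without molecular identifiers. Ratios were taken for genes with at least 10 counts over both libraries and no library at 0. Positions, exonic lengths and overlaps came from GENCODE M21 on GRCm38, and promoters from RefSeq. Plots were drawn with matplotlib 3.10.9. The fit was tested on simulated counts.

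All 10 members were named, with the called genes of each pathway or marker list, the 2 most abundant genes of the lists described at length, and the 8 genes of nearest profile; *Igkc*, *Cd79a*, *Cd79b*, *Ms4a1*, *Cd22*, *Ebf1*, *Itgam*, *Cd68*, *Ctss*, *Rfx5*, *Marchf1*, *Foxp3* and *Pdcd1* were named after their values were seen. The members, a named list with no threshold on values, and the other lists were chosen with earlier results of these data known. For 1 B cell marker, its own values are not reported here, while sums and counts over the list include it. Alternatives were other scaling, no filter, DESeq2 1.42.0, the replicate block, a stricter threshold, *H2-DMb1* and *H2-DMb2* summed, and each library left out.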

Additional observations from a re-analysis of the deposited data

How the results depend on the processing

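Of 12403 tested genes, 533 were called by the edgeR quasi-likelihood test, beside 427 with DESeq2 and 153 at an adjusted p under 0.01. With no filter on low counts it was 1367 of 23880 genes. The count lay between 174 and 1583 with 1 library left out. Of the 8 tested class II members 1 was called. With no filter 5 of 10 members were called. With DESeq2 0 were called, 4 having an unadjusted p under 0.05. At an adjusted p under 0.01 the count was 0, with 5 at an unadjusted p under 0.05. With the replicate number as a block 1165 of 12403 genes and 5 of 8 members were called. The deviations of same-numbered libraries correlate at r = 0.0642 across genes. With 2 libraries per group this cannot settle whether same-numbered libraries were paired, and the labels do not say. The replicate block is not evidence of pairing. The median log2 fold change of the members lay between 0.40 and 1.85 with 1 library left out. The cKO 1 over cKO 2 ratio of summed CPM was 1.72 without *Cd74* and 3.28 for the classical chains alone, and 1.83 and 1.89 under other scaling. *H2-DMa* turned to -0.07 without WT 1 and -0.27 without cKO 1 (leave-one-out range -0.27 to 0.28), and *H2-Oa* to 0.10 without cKO 2 (range -0.83 to 0.10); neither was called in any setting. *Cd74* was called in 8 alternatives and not with DESeq2, without WT 2 or at an adjusted p under 0.01, with adjusted p from 2.19e-23 to 0.140. Of 80 values of single members under alternatives, 60 kept their direction and side of the threshold. For all of these shifts the cause was not tested. Depth limits *H2-DMb1*, *H2-DMb2* and *Ciita* in particular.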
